A study of Mus musculus with 8 samples.

Results

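Chemokines are small secreted proteins that guide leukocytes and progenitor cells, and they act through G protein-coupled receptors on the cells they attract. The genes studied here are the mouse chemokine ligands and receptors, chosen by symbol: the Ccl, Cxcl, Ccr, Cxcr and Ackr genes and Cx3cl1, Cx3cr1, Xcl1 and Xcr1. They numbered 55 of the 19310 genes measured, 34 ligand genes and 21 receptor genes, and each gene with several array rows was read from its brightest row.

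RNA of the visceral fat beside the epididymis (epididymal white adipose tissue) was compared between 4 wild-type samples (WT) and 4 samples labelled Rev-erb alpha KO, all from male C57BL/6 mice aged 12 to 15 weeks. Rev-erb alpha, encoded by Nr1d1, is a nuclear receptor of the circadian clock that represses transcription. Mice ate standard chow in cycles of 12 h light and 12 h dark, and tissue was taken at Zeitgeber time 10, in hours after lights on. The labels say neither how the allele was made nor whether replicates are separate mice, and the p-values rest on a spread between samples that may be technical.

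Chemokines fall into families named after the spacing of their cysteines, and ligands of one family often share a receptor. Resident macrophages, progenitor cells, endothelium and adipocytes of fat can all produce them, and the CCL2-CCR2 pair is known for bringing monocytes into visceral fat in obesity. Atypical receptors bind chemokines without the usual G protein signal, and several of them clear the ligand from the tissue. Ccl2 has been described as a gene that Rev-erb alpha represses in macrophages.

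The values are the deposited log2 expression values, with array medians of 5.90 to 5.95. The row of Nr1d1 itself did not separate the groups (9.40 ± 0.33 in wild type and 9.14 ± 0.35 in the knockout-labelled arrays, SD, n = 4 each, limma adjusted p = 0.479). Where this row lies relative to the deleted part is not given in the sources used here, so it does not check the labels, and the text keeps to the term knockout-labelled. Arntl, a clock gene that Rev-erb receptors repress, read 5.02 ± 0.17 and 6.87 ± 0.15. Adipocyte markers were bright (Adipoq 12.2 ± 0.054 in wild type), whereas the mean of 5 epididymis markers lay between 3.71 and 3.87 on all arrays. On a component with 14.7% of the variance, knockout-labelled arrays 1 and 2 lay at −12.8 and −10.7 and arrays 3 and 4 at 11.4 and 5.91. Wild-type array 1 lay at 9.93 on it, and the other wild-type arrays between −2.42 and 0.43. On the first component (43.2%), knockout-labelled arrays 1 and 2 lay at 9.41 and 9.34 and arrays 3 and 4 at 19.0 and 17.6. Values for these pairs of arrays are therefore given beside the called members and others they change. The pairs were picked from these same values, and arrays 3 and 4 lie farther from wild type on the first component. Larger differences with arrays 3 and 4 are thus partly set by that choice. The adjusted p-values of these fits describe the pairs and are not independent evidence.

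In the knockout-labelled fat, 3 of the 55 chemokine genes rose and 2 fell. The receptor genes Cxcr4 and Ackr3 and the eosinophil attractant gene Ccl11 were higher, and the interferon-induced ligand genes Cxcl9 and Cxcl11 were lower. The changes were small except for that of Cxcl9, which was 2.13-fold lower. These 5 called genes were 9.09% of the members, and percent called over all genes was 7.50 (3.89 higher and 3.61 lower), so the share is close to that of genes in general (limma, Benjamini-Hochberg adjusted p under 0.05 over all tested rows). At an unadjusted p under 0.05 lay 15 members (27.3%), beside 21.8% of all genes. Later counts at an unadjusted p from the fit of all arrays are to be read against this share. The groups did not overlap in 9 members, 5 above and 4 below, or 16.4%, against 15.5% of all genes (7.29% above and 8.26% below). With single arrays dropped, 0 to 4 members were called higher and 1 to 2 lower, and 0 were higher without wild-type array 2 or 4 or without knockout-labelled array 3 or 4. The share of all genes called was not computed for these smaller fits. With a minimum of 1.5-fold, Cxcl9 alone was called, beside 1.58% of all genes. The median log2 fold change of the members was 0.02, beside −0.01 over all genes, and 31 of the 55 lay above 0. Of the 55, 32 lay outside the dimmest 33.3% of rows and 23 within it, and no detection calls were used, so dim rows have no stated background.

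**Figure D1:**
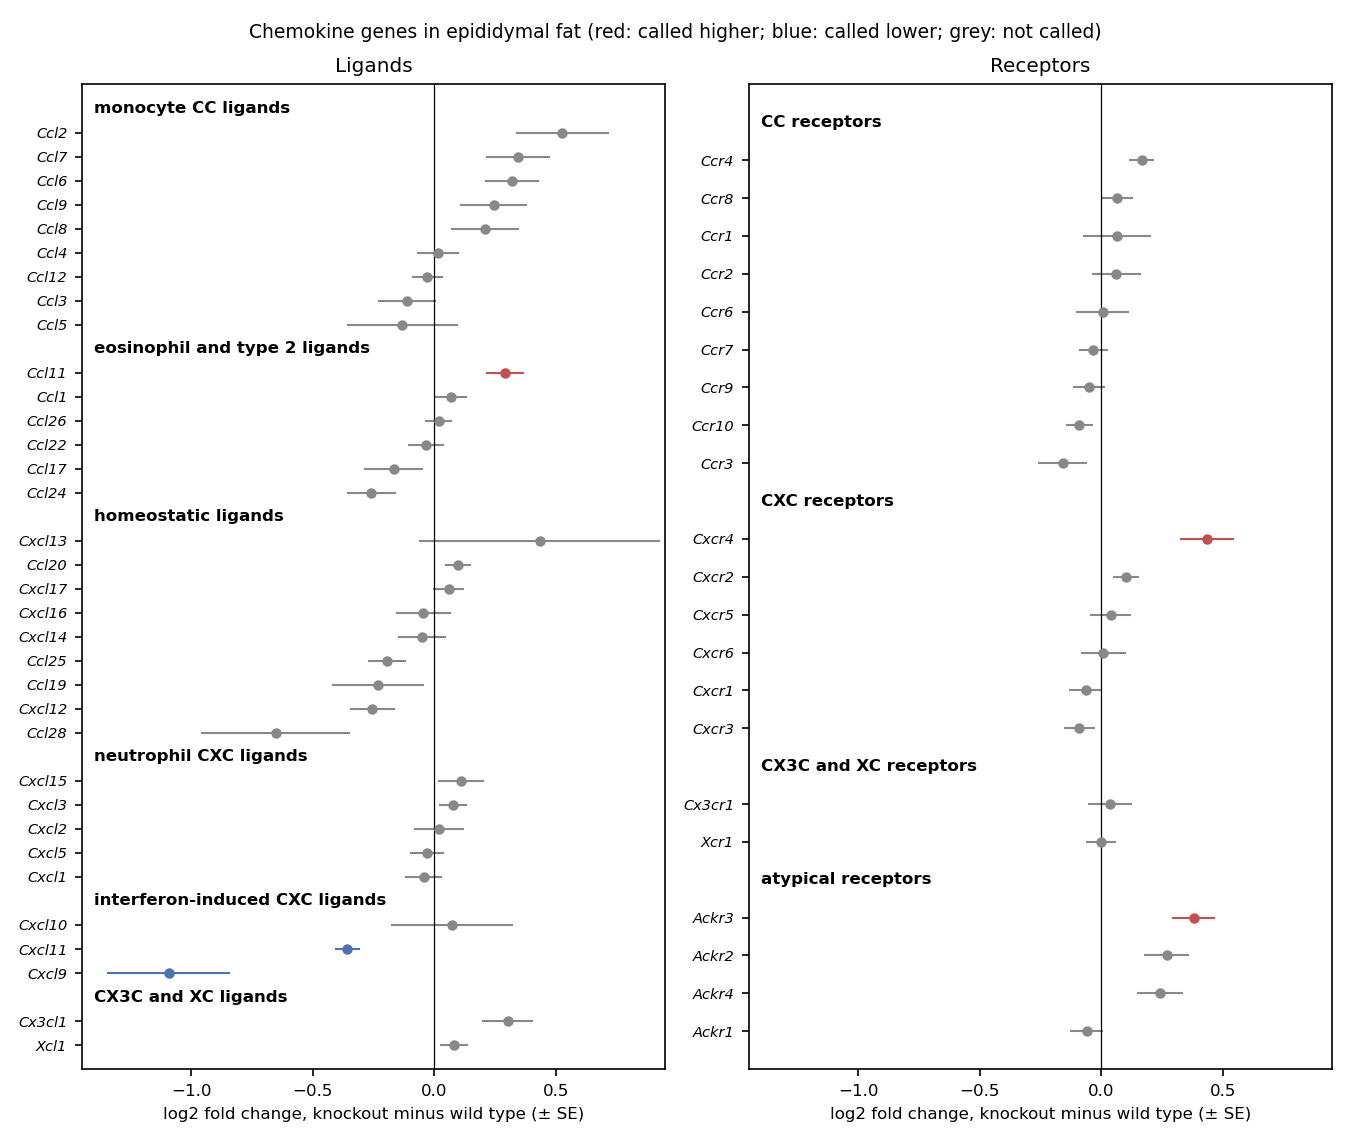
Log2 fold change (knockout-labelled minus wild type, x axis, with SE from limma) of each of the 55 genes, ligands on the left and receptors on the right, grouped by role. Red points were called higher (Cxcr4, Ackr3, Ccl11), blue points lower (Cxcl9, Cxcl11) and grey points were not called, and Cxcl9 lies farthest from 0 at −1.09.

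**Figure D2:**
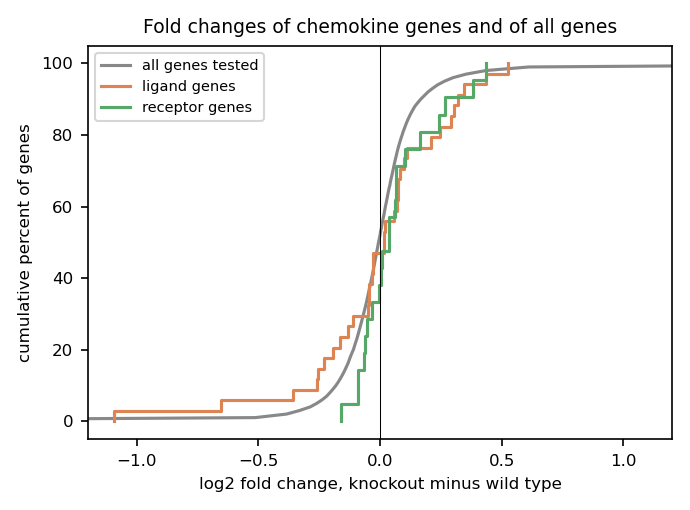
Cumulative percent of genes (y axis) by log2 fold change (x axis) for 34 ligand genes, 21 receptor genes and all 19310 genes, the last drawn from percentiles. The medians are 0.02 for ligands, 0.04 for receptors and −0.01 for all genes, and the curve of all genes runs beyond the plotted range.

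The promoters of Cxcl9 and Cxcl10 are shown because these neighbouring genes encode ligands of the same receptor, CXCR3, and read differently here. Each window holds 250 bases before and 50 bases after the gene's start, 5′ to 3′ along the gene, from RefSeq (GRCm38.p6, minus strand, chr5:92328030-92328329 for Cxcl9 and chr5:92348840-92349139 for Cxcl10). Capitals mark matches to the motifs searched on both strands.
Cxcl9: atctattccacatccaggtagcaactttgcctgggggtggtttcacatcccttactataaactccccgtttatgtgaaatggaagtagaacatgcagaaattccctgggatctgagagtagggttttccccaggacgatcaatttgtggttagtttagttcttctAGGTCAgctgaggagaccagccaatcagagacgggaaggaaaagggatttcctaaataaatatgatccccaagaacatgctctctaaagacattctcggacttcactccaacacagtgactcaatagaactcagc
Cxcl10: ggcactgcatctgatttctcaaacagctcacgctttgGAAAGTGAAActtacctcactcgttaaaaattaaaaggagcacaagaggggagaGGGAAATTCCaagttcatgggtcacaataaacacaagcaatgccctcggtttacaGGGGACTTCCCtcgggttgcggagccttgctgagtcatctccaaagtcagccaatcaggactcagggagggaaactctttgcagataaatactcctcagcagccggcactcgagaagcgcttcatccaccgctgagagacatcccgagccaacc
In the Cxcl9 window the capitals are the hexamer AGGTCA, the core of the element that Rev-erb and ROR receptors bind, at bases −85 to −80 from the start. In the Cxcl10 window they are an interferon-stimulated response element (GAAA repeated after 2 bases) at bases −213 to −204, and matches to the NF-kB consensus at −159 to −150 and, as a pair overlapping by all but 1 base each, at −104 to −94.

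The same motifs occur in promoters at large. AGGTCA occurred in 16.3% of all 32851 promoter windows of this length and in 12 of the 41 members with a window, Cxcl9, Cxcl13, Ccl6 and Ccl25 among them. The interferon element occurred in 3.44% of all windows and in 3 of 41 members, and the NF-kB consensus in 8.46% and in 11 of 41. The STAT site TTCNNNGAA (8.30% of windows, 3 of 41 members) and the E-box CACGTG (7.15%, 2 of 41) were in neither window. None of the 5 motifs matched in the windows of Cxcl12, Cxcr4 or Ackr3, which says only that these letters are not in those 300 bases. The called members Cxcl11 and Ccl11 had no window and were not searched. A match is a description of sequence and not a measured binding site.

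The interferon-induced ligands held both decreases, Cxcl9 and Cxcl11. CXCL9, CXCL10 and CXCL11 attract activated T cells and NK cells through CXCR3, and their genes neighbour each other. Cxcl9 read 9.28, 9.29, 9.34 and 9.78 log2 in wild type and 8.24, 9.22, 7.92 and 7.93 in the knockout-labelled arrays. The groups did not overlap, but knockout-labelled array 2 lay only 0.056 below the lowest wild-type array. Cxcl9 thus fell by 1.09 on the log2 scale (SE 0.25, limma adjusted p = 0.0278). It was −0.69 with knockout-labelled arrays 1 and 2 alone (adjusted p = 0.200) and −1.50 with arrays 3 and 4 alone (0.000715). The call was lost when any 1 of wild-type arrays 2, 3 and 4 or of knockout-labelled arrays 1, 3 and 4 was left out (adjusted p up to 0.0823, difference −0.96 to −1.14). In bulk tissue, fewer cells that make a transcript and less of it per cell cannot be told apart, here and for every gene that follows.

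Cxcl11 changed less but with little spread. It read 4.64, 4.58, 4.56 and 4.65 log2 in wild type and 4.25, 4.30, 4.26 and 4.20 in the knockout-labelled arrays, with every knockout-labelled array at least 0.263 below every wild-type array. Its level fell by 0.36 on the log2 scale (SE 0.050, 1.28-fold lower, limma adjusted p = 0.00237). The row is among the dimmest 33.3%, and RefSeq lists the gene in C57BL/6J as a transcribed pseudogene. It was at −0.33 with knockout-labelled arrays 1 and 2 alone (limma adjusted p = 0.0294) and at −0.38 with arrays 3 and 4 alone (0.00889). Its adjusted p stayed between 0.00213 and 0.0294 in all alternatives that tested the row, and the call was lost only where a minimum of 1.5-fold was asked for.

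Cxcl10 did not pass. It read 5.52, 5.57, 5.64 and 6.13 log2 in wild type and 5.58, 6.67, 5.36 and 5.56 in the knockout-labelled arrays, and the groups overlapped (log2 fold change 0.07, SE 0.25, limma adjusted p = 0.906). The highest value in each group stood out, wild-type array 4 and knockout-labelled array 2. The receptor gene Cxcr3 read 5.22, 5.42, 5.22 and 5.42 in wild type and 5.26, 5.23, 5.22 and 5.21 in the knockout-labelled arrays (−0.09, SE 0.064, adjusted p = 0.465), so the groups overlapped there too.

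Those same arrays, wild-type 4 and knockout-labelled 2, were the highest of their group in Cxcl9 and Cxcl10 and in Ccl5, the gene of another T-cell attractant. Ccl5 read 6.32, 6.37, 6.07 and 7.02 log2 in wild type and 6.33, 6.90, 6.10 and 5.92 in the knockout-labelled arrays (log2 fold change −0.13, SE 0.23, limma adjusted p = 0.799). They were also the highest in the mean of 8 T-cell markers (5.22 and 5.19) and of 6 NK-cell markers (4.55 and 4.48). Over the groups, the T-cell mean ranged from 5.04 to 5.22 in wild type and from 5.00 to 5.19 in the knockout-labelled arrays, and the NK-cell mean from 4.28 to 4.55 and from 4.17 to 4.48. None of these 14 markers was called. At an unadjusted limma p under 0.05 lay 0 of the NK-cell markers and 2 of the T-cell markers, Thy1 above 0 (0.52) and Cd5 below (−0.17). Above 0 lay 2 of the 8 T-cell markers and 1 of the 6 NK-cell markers. The median log2 fold changes of these lists were −0.08 and −0.10, beside −0.01 over all genes. The part of T and NK cells in the Cxcl9 difference was not tested.

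**Figure D3:**
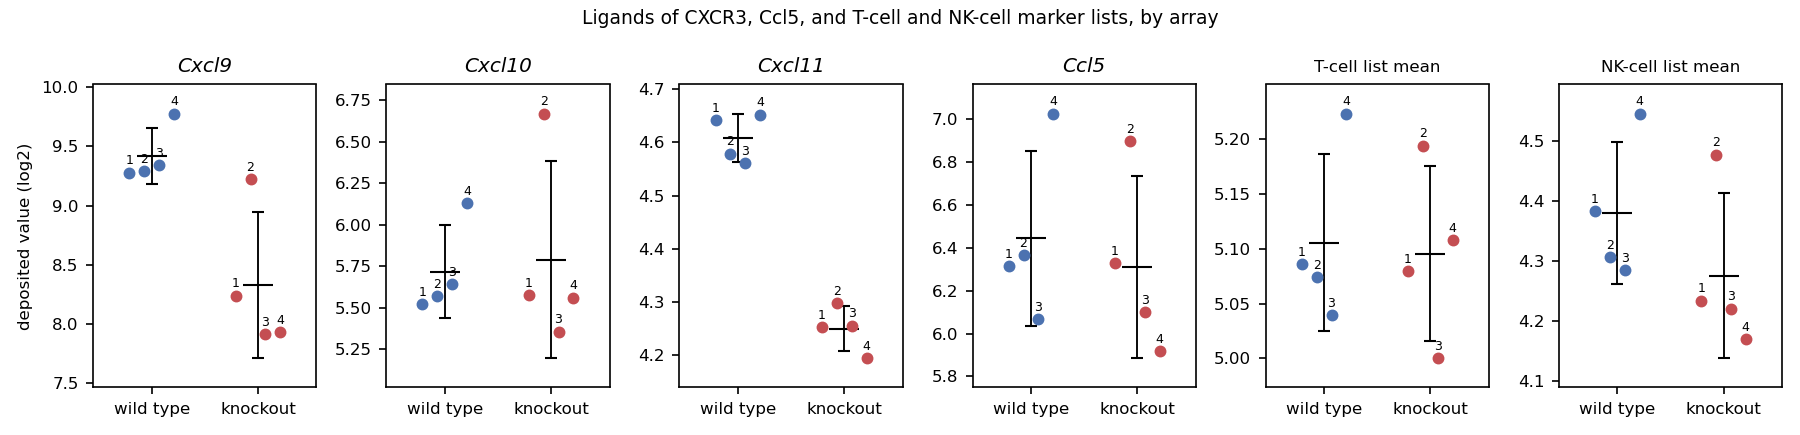
Deposited log2 values (y axis, a scale for each panel) of Cxcl9, Cxcl10, Cxcl11 and Ccl5 and the means of the T-cell and NK-cell marker lists in 4 wild-type (blue) and 4 knockout-labelled (red) arrays, with array numbers, group mean and SD. Wild-type array 4 and knockout-labelled array 2 top their groups in each panel, and the groups are apart in Cxcl9 and Cxcl11 only.

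The Cxcl12 axis had both receptor genes higher. CXCL12 retains and guides progenitors, leukocytes and endothelial cells through CXCR4, and the atypical receptor ACKR3 binds and clears it. Cxcr4 read 6.32, 6.20, 6.52 and 6.22 log2 in wild type and 6.56, 6.57, 6.98 and 6.90 in the knockout-labelled arrays. The groups did not overlap, with arrays 3 and 4 the highest (log2 fold change 0.43, SE 0.11, 1.35-fold, limma adjusted p = 0.0397). Ackr3 read 6.48, 6.45, 6.31 and 6.36 in wild type and 6.53, 6.82, 6.96 and 6.82 in the knockout-labelled arrays. Again the groups were apart, by 0.045 at knockout-labelled array 1 (0.38, SE 0.087, 1.30-fold, adjusted p = 0.0261).

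Neither receptor gene was called with knockout-labelled arrays 1 and 2 alone. In that fit, the log2 fold changes were 0.24 for Cxcr4 (limma adjusted p = 0.233) and 0.27 for Ackr3 (0.178). With arrays 3 and 4 alone they were 0.63 (0.00641) and 0.49 (0.0070). Dropping a single array ended the Cxcr4 call for 5 of the 8 (wild-type 1, 2 and 4, knockout-labelled 3 and 4, adjusted p up to 0.112) and the Ackr3 call for 6 (arrays 2, 3 and 4 of each group, up to 0.0755). The ligand gene Cxcl12 lay below 0 without passing. It read 7.90, 7.78, 7.82 and 7.90 in wild type and 7.48, 7.36, 7.76 and 7.77 in the knockout-labelled arrays, 0.0041 apart at the nearest (−0.26, SE 0.093, adjusted p = 0.133). Its difference was −0.43 with arrays 1 and 2 alone (adjusted p = 0.0176) and −0.08 with arrays 3 and 4 alone (0.510).

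Ccl11 rose as well, by a smaller amount. CCL11, or eotaxin, attracts eosinophils through CCR3 and is made by stromal cells. It read 8.62, 8.67, 8.52 and 8.60 log2 in wild type and 8.97, 8.75, 9.08 and 8.80 in the knockout-labelled arrays, with no overlap (log2 fold change 0.29, SE 0.077, 1.22-fold, limma adjusted p = 0.0461). This call was close to the threshold and was lost when any 1 array other than knockout-labelled 2 was dropped (adjusted p up to 0.117), and when rows without a single symbol were tested too (0.0524), with array weights (0.0541) and with the replicate block (0.0979). It was at 0.25 with knockout-labelled arrays 1 and 2 alone (0.151) and at 0.33 with arrays 3 and 4 alone (0.0570), not called in either. Ccl24, another ligand of CCR3, was at −0.26 (SE 0.10, adjusted p = 0.163) and Ccr3 at −0.16 (SE 0.10, 0.409). Ccl24 read 6.13, 5.80, 6.04 and 5.81 in wild type and 5.49, 5.79, 5.59 and 5.87 in the knockout-labelled arrays, and Ccr3 read 4.66, 4.63, 4.22 and 4.26 and 4.29, 4.24, 4.31 and 4.30. In Ccr3, wild-type arrays 1 and 2 stood above all other arrays. None of 5 eosinophil markers was called (2 at an unadjusted limma p under 0.05), and their mean ranged from 4.86 to 5.20 in wild type and from 5.07 to 5.16 in the knockout-labelled arrays.

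Some markers of stromal and vascular cells were higher, as were Cxcr4, Ackr3 and Ccl11. Of 8 progenitor and fibroblast markers 4 were higher and 0 lower, and the list mean ranged from 8.51 to 8.85 log2 in wild type and from 8.97 to 9.16 in the knockout-labelled arrays. Of 7 endothelial markers 2 were higher and 0 lower, with means of 8.35 to 8.60 and 8.61 to 8.80. Percent called higher over all genes was 3.89. Neither list mean overlapped between the groups, though the endothelial means nearly met, at 8.60 in wild-type array 4 and 8.61 in knockout-labelled array 2. Cldn5 had the largest change of the endothelial list, and the list mean without it was not computed. Not all markers lay above 0, with Dcn at −0.14, Cd34 at −0.02, Kdr at −0.02 and Tie1 at −0.01, and none of these passed. Of 5 smooth muscle markers 2 were higher and 1, Tagln, was lower (−0.29, SE 0.074, limma adjusted p = 0.0415), and the list means overlapped (7.63 to 7.89 and 7.81 to 8.06). Of 4 lymphatic markers 1 was higher and 0 lower, with 3 above 0, and the list means nearly met (6.53 to 6.80 and 6.81 to 6.95). Of 5 mesothelial markers 1 was higher and 0 lower, with only that 1 above 0, and the list means overlapped (8.25 to 8.44 and 8.21 to 8.40). Col1a1, a collagen gene of fibroblasts, was at 0.71 (SE 0.086, limma adjusted p = 0.0010) and Cldn5, an endothelial junction gene, at 0.99 (SE 0.12, 0.0010). The part of these cells in the 3 increases was not tested.

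**Figure D4:**
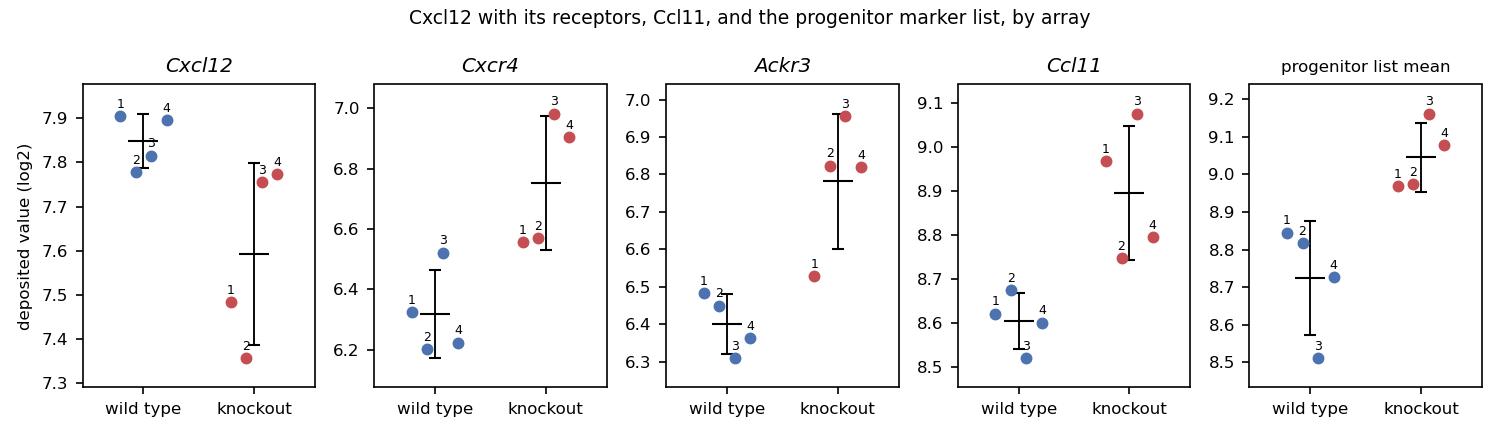
Deposited log2 values (y axis, a scale for each panel) of Cxcl12, its receptor genes Cxcr4 and Ackr3, Ccl11 and the mean of the progenitor and fibroblast list in 4 wild-type (blue) and 4 knockout-labelled (red) arrays, with array numbers, group mean and SD. Cxcl12 lies lower in all 4 knockout-labelled arrays, by 0.0041 at the nearest, and the other panels lie higher.

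The remaining atypical receptors did not pass. Ackr2, a scavenger of inflammatory CC chemokines, was at 0.27 (SE 0.092, limma adjusted p = 0.110), and Ackr4, which clears homeostatic chemokines, at 0.24 (SE 0.095, 0.169). The venular receptor gene Ackr1 read 5.99, 6.04, 5.94 and 6.12 log2 in wild type and 6.04, 5.82, 5.93 and 6.05 in the knockout-labelled arrays (−0.06, SE 0.067, adjusted p = 0.670), and its groups overlapped.

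Of the monocyte-attracting CC ligands, 0 of 9 were called in limma, with 3 at an unadjusted p under 0.05 (Ccl2, Ccl6 and Ccl7, all above 0), beside 21.8% of all genes. Their median log2 fold change was 0.21, beside −0.01 over all genes, and 6 of the 9 lay above 0. Ccl2 read 6.28, 6.30, 6.05 and 6.40 log2 in wild type and 6.28, 6.49, 7.18 and 7.19 in the knockout-labelled arrays. Arrays 3 and 4 stood well above wild type, whereas array 1 lay within its range (log2 fold change 0.53, SE 0.19, limma adjusted p = 0.135). It was at 0.13 with knockout-labelled arrays 1 and 2 alone (adjusted p = 0.601) and at 0.93 with arrays 3 and 4 alone (0.00115). Ccl2 passed without knockout-labelled array 1 (0.0364) and in no other fit with a single array dropped (adjusted p up to 0.301).

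Ccl7, whose gene neighbours Ccl2, was at 0.35 (SE 0.13, limma adjusted p = 0.154), with knockout-labelled arrays 3 and 4 again the highest. Of the 6 neighbouring genes Ccl2, Ccl7, Ccl11, Ccl12, Ccl8 and Ccl1, 5 lay above 0 and Ccl11 was the called one. With knockout-labelled arrays 3 and 4 alone, 4 members were higher (Ackr3, Ccl2, Ccl7 and Cxcr4, beside 4.85% of all genes) and 2 lower (Cxcl9 and Cxcl11, beside 3.94%). With arrays 1 and 2 alone, 0 were called higher in limma (beside 1.96% of all genes) and 2 lower (Cxcl11 and Cxcl12, beside 1.40%). At an unadjusted p under 0.05, 6 members lay above 0 in that fit, for which the share of all genes was not computed. The difference between these pairs of arrays was not tested.

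Ccl6, a macrophage-expressed ligand gene, read 9.36, 9.42, 9.04 and 9.34 log2 in wild type and 9.49, 9.91, 9.42 and 9.61 in the knockout-labelled arrays. The groups were apart by 0.0083, and the difference did not pass (0.32, SE 0.11, limma adjusted p = 0.120). Ccr2, the receptor gene for CCL2, read 7.05, 6.79, 6.58 and 6.71 in wild type and 6.72, 6.85, 6.79 and 7.03 in the knockout-labelled arrays, with full overlap (0.06, SE 0.10, adjusted p = 0.784). Of 13 macrophage markers 0 were called higher and Cd14, a co-receptor for endotoxin, was called lower (−0.38, SE 0.073, limma adjusted p = 0.0116). Cd14 went against most of its list, since 11 of the 13 markers lay above 0 without passing. The list median was 0.10, beside −0.01 over all genes. The mean of that list ranged from 7.63 to 8.05 in wild type and from 7.85 to 8.15 in the knockout-labelled arrays.

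**Figure D5:**
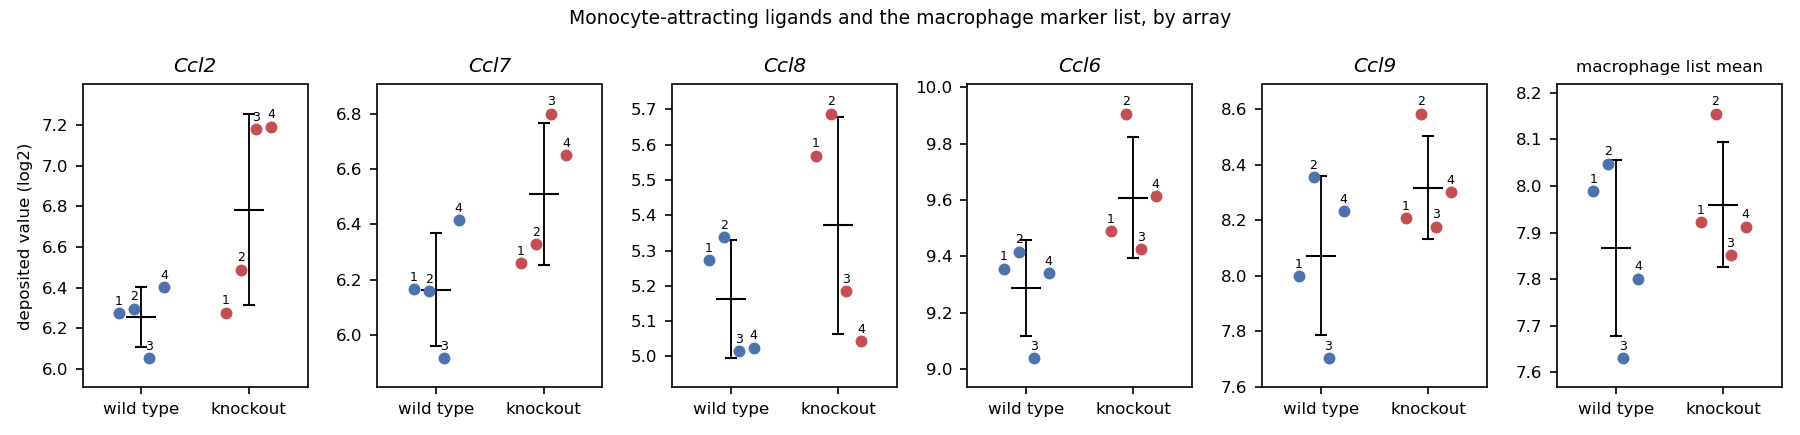
Deposited log2 values (y axis, a scale for each panel) of Ccl2, Ccl7, Ccl8, Ccl6 and Ccl9 and the mean of 13 macrophage markers in 4 wild-type (blue) and 4 knockout-labelled (red) arrays, with array numbers, group mean and SD. Knockout-labelled arrays 3 and 4 are the highest in Ccl2 and Ccl7, whereas arrays 1 and 2 are the highest in Ccl8 and array 2 in Ccl6 and Ccl9.

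Homeostatic ligands, which place lymphocytes and other cells in resting tissue, had 0 of 9 called in limma, with 2 at an unadjusted p under 0.05 (Cxcl12 and Ccl25, both below 0), again beside 21.8% of all genes. Cxcl13, which attracts B cells through CXCR5, had the largest SD of the 55 genes within each group (0.90 for wild type, 0.94 for the knockout label). It read 8.34, 9.52, 7.75 and 7.51 log2 in wild type and 10.1, 8.52, 8.16 and 8.09 in the knockout-labelled arrays, with wild-type array 2 and knockout-labelled array 1 the highest (log2 fold change 0.43, SE 0.49, limma adjusted p = 0.679). The mean of 6 B-cell markers was 5.04, 4.99, 4.71 and 4.76 in wild type and 5.04, 5.02, 4.75 and 4.62 in the knockout-labelled arrays, so the arrays ranked alike in both within the knockout label, and in wild type arrays 1 and 2 were the highest in both, in the other order. The part of B cells in the spread of Cxcl13 was not tested. None of those 6 was called or had an unadjusted limma p under 0.05.

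Ccl28, an epithelial chemokine gene, read 6.64, 5.36, 4.88 and 5.06 log2 in wild type and 4.81, 4.78, 4.87 and 4.87 in the knockout-labelled arrays. The groups did not overlap, by 0.0074, and wild-type array 1 stood far above the rest. The difference of −0.65 (SE 0.31, limma adjusted p = 0.248) was −0.27 without that array. Cxcl14, made by adipocytes and epithelia, read 5.13, 5.09, 5.08 and 5.37 in wild type and 5.00, 5.10, 5.39 and 4.98 in the knockout-labelled arrays, with overlap (−0.05, SE 0.099, adjusted p = 0.832). Ccl19, which guides dendritic cells and T cells through CCR7, was at −0.23 (SE 0.19, adjusted p = 0.540) on the brightest of its 4 rows. The genome holds near-identical copies of this gene, so its rows are uncertain.

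Of the neutrophil-attracting CXC ligands within the symbol rule, 0 of 5 were called in limma and 0 had an unadjusted p under 0.05. Ppbp, a CXC chemokine gene outside that rule, was called higher and is given further on. Their log2 fold changes ran from −0.04 for Cxcl1 to 0.11 for Cxcl15, and 4 of the 5 rows were among the dimmest 33.3%. Cxcl1 read 5.34, 5.01, 5.34 and 5.21 log2 in wild type and 5.23, 5.17, 5.17 and 5.16 in the knockout-labelled arrays, and Cxcl15 read 3.08, 3.07, 3.28 and 3.28 and 3.21, 3.26, 3.55 and 3.12. Both pairs of groups overlapped. Of 8 neutrophil markers 0 were called in limma (2 at an unadjusted p under 0.05).

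Cx3cl1, a membrane-bound chemokine gene of endothelium and adipocytes, read 5.79, 5.33, 5.31 and 5.28 log2 in wild type and 5.73, 5.63, 5.80 and 5.76 in the knockout-labelled arrays. Wild-type array 1 lay among the knockout-labelled values. The difference was 0.30 (SE 0.11, limma adjusted p = 0.120), and without that array it was 0.42 and passed (adjusted p = 0.00377). It passed in no other fit with a single array dropped (adjusted p up to 0.261). Its receptor gene Cx3cr1, of monocytes and resident macrophages, read 5.93, 5.97, 5.72 and 6.07 in wild type and 5.98, 6.14, 5.94 and 5.78 in the knockout-labelled arrays, with overlap (0.04, SE 0.091, adjusted p = 0.864). Xcr1, the receptor gene of cross-presenting dendritic cells, read 4.89, 4.90, 4.81 and 4.68 and 4.81, 4.87, 4.76 and 4.85 (−0.0020, SE 0.062, adjusted p = 0.990).

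The conventional receptor genes apart from Cxcr4 had small fold changes. Of 9 CC receptor genes 0 were called in limma, with 1 at an unadjusted p under 0.05, and their log2 fold changes ran from −0.16 (Ccr3) to 0.17 (Ccr4). Ccr4, a receptor gene of type 2 helper and regulatory T cells, read 4.06, 3.98, 4.05 and 3.95 log2 in wild type and 4.16, 4.17, 4.15 and 4.22 in the knockout-labelled arrays. The groups were apart (0.17, SE 0.050, limma adjusted p = 0.0749), and the row is among the dimmest 33.3%, as are 6 of the 9 CC receptor rows and 4 of the 6 CXC receptor rows. Receptor genes had a median absolute log2 fold change of 0.064 and ligand genes of 0.12, beside 0.078 over all genes.

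Other genes of the chemokine system were read from 4 lists of related family members, receptor signalling, ligand processing and inducers. Of 78 measured genes 7 were higher and 1 lower in limma, or 10.3%, beside percent called of 7.50 over all genes. Of 13 related genes 3 were higher. Ppbp, a platelet CXC chemokine gene outside the symbol rule, was at 0.80 (SE 0.20, adjusted p = 0.0340), though its groups overlapped. Ccrl2, which presents chemerin, was at 0.31 (SE 0.070, 0.0223), and Cmtm7, of the chemokine-like factor family, at 0.27 (SE 0.062, 0.0283).

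Of 30 receptor signalling genes 3 were higher and 1 lower in limma. The receptor kinase gene Grk5 went from 7.39 ± 0.092 to 8.05 ± 0.12 log2 (SD, n = 4 each), a rise of 0.66 (SE 0.073, limma adjusted p = 0.000631). The beta-arrestin gene Arrb1 was at 0.36 (SE 0.068, 0.0112). Both proteins switch off or internalize activated receptors of many kinds. Rasgrp2, an exchange factor for the GTPase Rap1, was at 0.32 (SE 0.070, 0.0209), and Tiam1, an exchange factor for Rac, fell by 0.27 (SE 0.069, 0.0442). Of 17 processing and presentation genes Sdc2, a heparan sulfate proteoglycan gene, was higher (0.27, SE 0.062, 0.0275) and 0 were lower. Of 18 inducers of chemokine genes 0 were called in limma, with 3 (16.7%) at an unadjusted p under 0.05, below the 21.8% of all genes. Their median was −0.09, and Irf1, an interferon-induced factor, was at −0.43 (SE 0.15, adjusted p = 0.118).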

How the data were processed

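RNA of epididymal fat was measured on whole-transcript Affymetrix arrays in 4 wild-type and 4 knockout-labelled samples, grouped by the labels. The deposited values are log2 expression values by the authors. The submitters' processing notes name affy, and background correction, normalization and summarization are not given in the sources used here. The scale was read from the values (2.09 to 13.4). The array medians are alike, so a change common to most genes may have been removed. The number of arrays limits the precision.

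Of 23346 rows, 20748 had exactly 1 symbol in the platform annotation, and 1183 with several and 1415 with none were left out. These included 3 rows for which a symbol of several matched the rule. Knockout-labelled minus wild-type differences came from limma 3.58.1 (R 4.3.3), with lmFit and eBayes on a 2-group design and two-sided tests, with Benjamini-Hochberg adjustment over the 20748 rows and calls at adjusted p under 0.05. All SE are from that moderated fit. Members and lists were counted on the brightest row of each gene, and percentages over all genes on the same rows. List levels are means of log2 values. All 55 members matched the RefSeq mouse gene table (GRCm38.p6) by Entrez identifier, used for names and neighbours (at most 5 genes between), and 41 had a RefSeq promoter window.

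Members, roles and lists were chosen with earlier results of these data known. Genes with values per array are the called members, 11 fixed ones, those with the largest change in each direction in each role, those whose groups did not overlap, and the 3 with the highest wild-type mean. Ccl26 was placed in its role later. Of the pathway lists, called genes were named. Irf1 and the members Ccl7, Ccl19, Ccl25, Ackr2 and Ackr4 were named after their values were seen. So were Adipoq, Col1a1, Cldn5, Dcn, Cd34, Kdr, Tie1, Tagln, Cd14, Thy1 and Cd5 from the marker lists.

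On simulated data for this contrast over 20748 rows, the fit recovered 75% of changes of 0.5 log2 and 96% of changes of 1 log2, and 6.04% of 182 calls were false. The simulated rows were independent, with 200 of them changed and no pattern shared across arrays. These rates need not hold for the real arrays. Alternatives were other normalizations, filters, variance models, array weights, a replicate block, single arrays left out, and knockout-labelled arrays 1 and 2 or 3 and 4 only. No pair of arrays held identical values.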

Additional observations from a re-analysis of the deposited data

Results flagged for a closer look

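In 48 groups of 4 arrays of the members given array by array, 3 values lay far from the other 3 arrays of their group by Dixon's test at the 95% level, which chance flags in about 1 in 20 groups. Cxcl9 in wild-type array 4 read 9.78 log2, with the other wild-type arrays between 9.28 and 9.34. Cxcl10 in knockout-labelled array 2 read 6.67, with the others between 5.36 and 5.58. Cx3cl1 in wild-type array 1 read 5.79, with the others between 5.28 and 5.33.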

How the results depend on the processing

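The number of members called higher, 3 in the reported fit, ranged from 0 to 4 with single arrays left out, and the number lower, 2 in the reported fit, from 1 to 2. Leaving out array 2 or 4 of wild type, or array 3 or 4 of the knockout label, left 0 higher (limma, with 8 to 11 above 0 at an unadjusted p under 0.05), and without wild-type array 3 only Cxcr4 was. Shares of all genes were not computed for the fits without 1 array, so the losses cannot be called particular to the members. Among these fits, Ackr3 was called when array 1 of either group was absent and Ccl11 without knockout-labelled array 2. Cxcr4 was called when wild-type array 3, or array 1 or 2 of the knockout label, was absent. Cxcl9 was called in the absence of wild-type array 1 or of knockout-labelled array 2, and Cxcl11 in all 8. Over all 8 fits, called or not, the limma adjusted p ran from 0.0044 to 0.0755 for Ackr3 and from 0.0292 to 0.112 for Cxcr4. It ran from 0.0292 to 0.117 for Ccl11 and from 0.00059 to 0.0823 for Cxcl9.

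Lower members numbered 1 with the dimmest 33.3% of rows left out, which removes Cxcl11, and 1 with trend and robust eBayes, where Cxcl9 was lost (the cause was not tested). With a 1.5-fold minimum, 0 were higher and 1, Cxcl9, was lower. With knockout-labelled arrays 1 and 2 only, 0 were called higher in limma, beside 1.96% of all genes. At an unadjusted p under 0.05, 6 members lay above 0 there, with no share of all genes computed. Deviations of same-numbered samples were little correlated (−0.0674 to 0.134). Whether the numbers pair the samples is not known, since a small shared effect would also leave such correlations low. With the replicate number as a block, 2 members were higher (Ccl6 and Cxcr4) and 2 lower.

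Signs turned for 7 uncalled genes, of which Cxcl13 was at 0.43 in the reported fit and the others nearer 0. With arrays left out, the lowest and highest values were −0.328 and 0.0614 for Ccl5, −0.00552 and 0.151 for Ccr2, −0.0304 and 0.0960 for Cx3cr1, −0.219 and 0.217 for Cxcl10, −0.0255 and 0.848 for Cxcl13, −0.139 and 0.0195 for Cxcl14 and −0.0482 and 0.0245 for Xcr1. With knockout-labelled arrays 1 and 2 only, Ccl5 was at 0.169, Ccr2 at −1.4e-05 and Xcr1 at 0.0140, and with arrays 3 and 4 only, Cx3cr1 was at −0.0610, Cxcl10 at −0.258, Cxcl13 at −0.156 and Cxcl14 at 0.0162. Xcr1 was at 0.0118 with quantile normalization, 0.0161 with median centring and 0.00753 with array weights. Of 427 comparisons of 24 genes with their alternatives, 366 kept direction and call, 34 lost and 6 gained a call and 21 changed sign. Most of the 24 genes were not called in the reported fit and had no call to lose. All 34 losses fell on Ackr3, Ccl11, Cxcl9 and Cxcr4, so the pooled count does not describe how stable their calls were. Of 342 list counts, 276 stayed within 1.5 times of the reported one.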

Other observations

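Ccl19 was read by 3 further rows, all of them below 0 (log2 fold changes −0.39, −0.13 and −0.14, limma adjusted p 0.173 to 0.509). The further Ccl25 row was at 0.01 (adjusted p = 0.951), whereas the brightest was at −0.19 (SE 0.077, 0.169). The 3 rows with several symbols, which name no gene here, were at 0.10, −0.11 and −0.32 when all rows were tested (adjusted p 0.326 to 0.852).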
